A study of Mus musculus with 12 samples.

Results

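The integrated stress response genes Atf4, Atf5, Ddit3, Trib3, Mthfd2, Phgdh, Psat1 and Asns, and the stress hormones (mitokines) Fgf21 and Gdf15, were measured by RNA-seq in mouse hearts. They were taken from the deposited gene count table by their symbols, which gave 11 of its 25171 loci for 10 symbols, because Ddit3 has 2 identifiers. Every group carried a Rosa26 cassette, loxP-stop-loxP-NOTCH2NLC-(GGC)98, which encodes a human NOTCH2NLC sequence with 98 GGC repeats behind a stop that Cre removes. EIIa-tg hearts also carried EIIa-Cre, which acts from the embryo in all tissues, and EIIa-ctl hearts were from littermates without it, all taken at day 30. Both Myh6 groups were labelled as carrying Myh6-creERT2, a tamoxifen-inducible Cre under the promoter of the heart muscle gene Myh6. From day 60 they received 3 injections, 1 every other day, of tamoxifen in corn oil at 75 mg/kg (Myh6-tg) or, for their littermates, of corn oil alone (Myh6-ctl), and their hearts were taken at day 90. Each of the 4 groups had 3 hearts. By these labels tamoxifen, Cre activity and transgene expression changed together between the Myh6 groups and cannot be told apart, although a transcript described below differed from what the shared genotype label gives, and EIIa-ctl controls for the cassette but not for Cre.

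In the integrated stress response, kinases that sense misfolded proteins, amino acid shortage, double-stranded RNA or haem shortage and mitochondrial stress phosphorylate the translation factor eIF2. General translation then slows while the mRNA of the transcription factor ATF4 is translated more. ATF4 raises transcription of genes for amino acid uptake and synthesis, tRNA charging, mitochondrial one-carbon metabolism and the factors CHOP (Ddit3), ATF5 and TRIB3. In heart and skeletal muscle with defective mitochondria this program is known to include the secreted hormones FGF21 and GDF15.

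The promoters are shown first because ATF4 acts through a short DNA element, the C/EBP-ATF response element. Its core, TGATGNAA, and the reverse complement, TTNCATCA, were searched in the RefSeq windows (GRCm38.p6) from 250 bases before to 50 after each annotated start. All 10 symbols matched that table, with 13 windows. The core lay in 1 window each of Trib3, Fgf21 and Asns, and in none of the other 7 symbols. Over the whole table it lay in 3.97% of 32851 windows and for 4.51% of 27025 symbols. A stretch of 180 bases, from 150 before to 30 after the start, is printed 5′ to 3′ on the strand of the gene for these 3 genes, and for Atf4 and Mthfd2, which rose in hearts described below. Capitals mark the core.
Trib3, chr2:152344031-152344210, minus strand: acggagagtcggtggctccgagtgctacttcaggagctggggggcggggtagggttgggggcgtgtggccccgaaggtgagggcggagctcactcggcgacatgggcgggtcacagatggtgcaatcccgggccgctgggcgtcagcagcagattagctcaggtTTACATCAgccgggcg
Asns, chr6:7693180-7693359, minus strand: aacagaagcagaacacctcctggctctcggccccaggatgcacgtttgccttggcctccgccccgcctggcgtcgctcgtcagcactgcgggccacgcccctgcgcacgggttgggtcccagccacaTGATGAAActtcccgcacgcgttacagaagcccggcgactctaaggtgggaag
Fgf21, chr7:45615461-45615640, minus strand: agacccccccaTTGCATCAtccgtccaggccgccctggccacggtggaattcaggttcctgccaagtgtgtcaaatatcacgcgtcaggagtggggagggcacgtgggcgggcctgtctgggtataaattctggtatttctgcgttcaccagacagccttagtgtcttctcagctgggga
Atf4, chr15:80255034-80255213, plus strand: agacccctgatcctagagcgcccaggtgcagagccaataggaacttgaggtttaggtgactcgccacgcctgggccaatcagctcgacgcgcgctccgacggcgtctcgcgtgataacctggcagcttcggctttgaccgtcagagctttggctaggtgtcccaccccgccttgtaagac
Mthfd2, chr6:83317575-83317754, minus strand: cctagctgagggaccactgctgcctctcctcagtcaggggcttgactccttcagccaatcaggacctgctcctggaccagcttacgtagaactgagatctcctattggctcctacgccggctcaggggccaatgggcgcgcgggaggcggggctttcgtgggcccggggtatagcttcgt
In Asns the match, at chr6:7693225-7693232, began 23 bases before the start, and in Fgf21, at chr7:45615622-45615629, 139 bases before it. In Trib3, at chr2:152344039-152344046, it lay just downstream of the RefSeq start, and in Trib3 and Fgf21 it was the reverse complement. A match is a description of these letters only, and a window without one says nothing about the factor.

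Before the genes are described, several features of the hearts bear on them. Libraries held 38343106 to 50969834 counts. The share of counts from mitochondrially encoded genes was 34.2 to 36.7% in EIIa-ctl hearts and 28.5 to 32.3% in EIIa-tg hearts, and it was 31.8 to 38.3% in Myh6-ctl against 15.5 to 18.6% in Myh6-tg hearts. The mouse gene Esr1 encodes an estrogen receptor, the kind of receptor that gives creERT2 its hormone-binding domain. Esr1 was at a CPM (counts scaled to a common library size, as in all values below) of 1031 to 2329 in Myh6-ctl hearts. It was at 1.00 to 2.52 CPM in Myh6-tg hearts, although both are labelled with the same genotype. The EIIa hearts, which are labelled with no creERT2, had 0.408 to 1.23 CPM, so that in Esr1 all 3 Myh6-tg hearts were close to hearts without that allele. Whether these reads come from the Cre allele was not tested. If they do, the Myh6 groups differed in that allele or in its expression, which cannot be told apart here. The library labels are used as group names below, so every direction between the Myh6 groups rests on them. The transgene itself was not analysed here. Replicate 1 of every group had 4224 to 7307 counts from Y-linked genes, and the other hearts at most 2.

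The hearts expressed all 8 cardiomyocyte markers examined, with a summed level of 32440 to 39914 CPM in EIIa-ctl and 17058 to 28626 CPM in EIIa-tg hearts, then 25667 to 31334 CPM in Myh6-ctl and 7012 to 20912 CPM in Myh6-tg hearts. The summed level of 7 fibroblast markers was 1185 to 1577, 2047 to 2975, 1577 to 2017 and 2851 to 6602 CPM in the same order, and that of 7 macrophage markers 238 to 352, 465 to 624, 436 to 626 and 605 to 1174 CPM. No marker of these lists was at 0 in any group. By edgeR's quasi-likelihood test, 2 cardiomyocyte markers were lower, and 2 fibroblast and 7 macrophage markers higher, in EIIa-tg hearts. In Myh6-tg hearts 5 cardiomyocyte markers were lower and 4 fibroblast markers higher, and the macrophage markers, with a median log2 fold change of 0.62, did not pass the test. The 5 endothelial markers summed to 854 to 986 CPM in EIIa-ctl and 646 to 735 CPM in EIIa-tg hearts, where 3 of them were lower, and to 522 to 1169 CPM in Myh6-ctl and 492 to 603 CPM in Myh6-tg hearts, where the median log2 fold change of -0.73 came with no call. Smooth muscle and pericyte markers summed to 933 to 1523 CPM over all hearts, while lymphocyte, adipocyte and hepatocyte markers each stayed under 8 CPM, brain markers reached 45.2 CPM and skeletal muscle markers 50.4 CPM, the last in Myh6-tg replicate 1. Fewer cells of a type and less RNA per cell cannot be told apart in whole hearts, and the part of these shifts in the results below was not tested.

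Of the 10 genes, 9 had enough counts to be tested, and each call below is an adjusted p under 0.05 over all genes tested. In EIIa-tg against EIIa-ctl hearts 3 rose, Atf4, Gdf15 and Psat1, and 0 fell, against a background of 8.65% of 14908 genes higher and 8.3% lower. In Myh6-tg against Myh6-ctl hearts 3 rose, Atf4, Trib3 and Mthfd2, and 0 fell, against 8.96% of 15298 genes higher and 9.38% lower. Atf4 was thus the one gene called in both models. The fold change was positive for 8 of 9 genes in EIIa-tg and 9 of 9 in Myh6-tg hearts. The median log2 fold change of the 9 genes was 0.46 in EIIa-tg hearts, where that of all genes was 0.02, and 1.15 in Myh6-tg hearts, where that of all genes was 0.03. Groups did not overlap, with the transgenic hearts higher, for 6 of the 9 genes in EIIa-tg hearts (20.3% of all genes) and for 3 in Myh6-tg hearts (20.6%). With edgeR, 0 of the 9 genes in either model passed an adjusted p under 0.01 with a log2 fold change of at least 1. Of all genes 0% passed in EIIa-tg and 3.97% in Myh6-tg hearts, so the EIIa-tg count says nothing about these 9. With DESeq2, Gdf15 (2.97, adjusted p = 0.00424) and Psat1 (1.39, adjusted p = 0.00134) passed these limits in EIIa-tg hearts. In Myh6-tg hearts Atf4 (1.13, adjusted p = 0.000181), Trib3 (1.29, adjusted p = 0.000322) and Mthfd2 (1.36, adjusted p = 0.000249) did. The share of all genes passing with DESeq2 was not counted. The mean level was highest in Myh6-tg hearts for all 9 genes and lowest in EIIa-ctl hearts for 7.

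**Figure D1:**
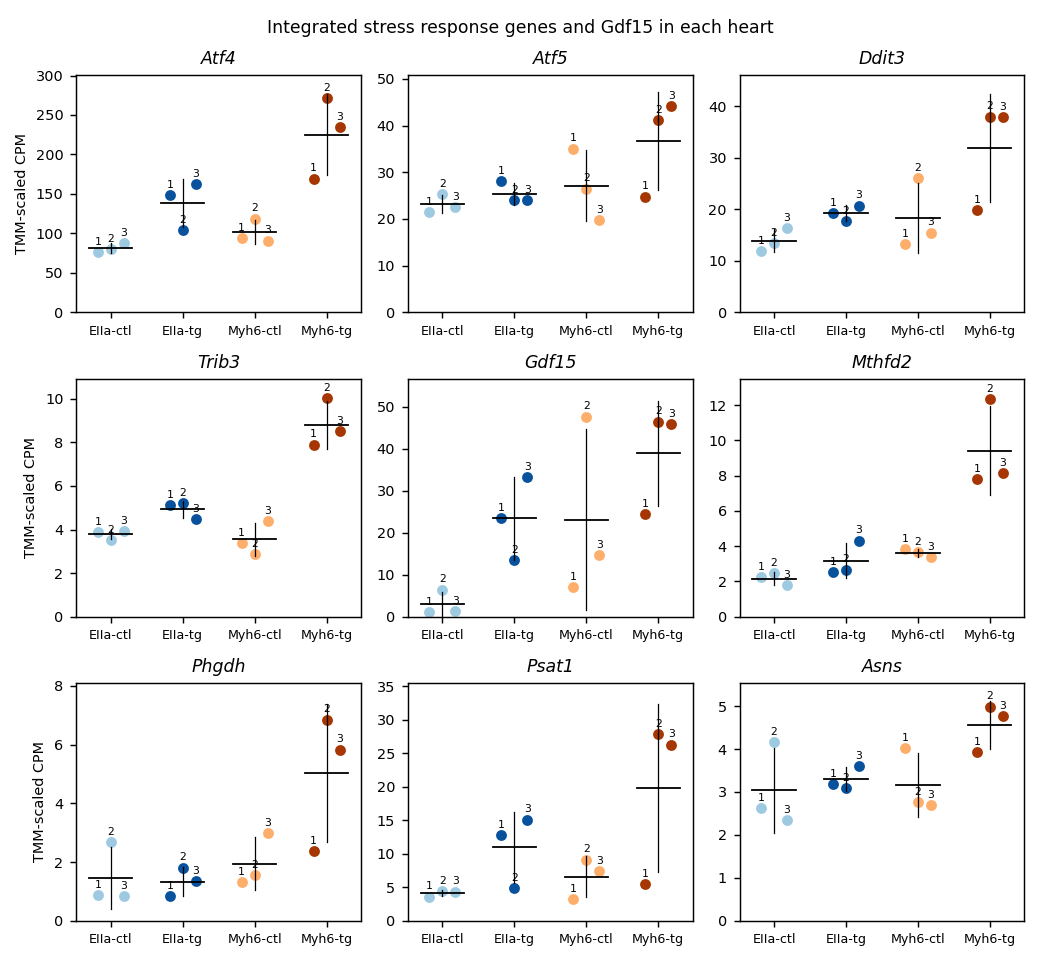
Level of the 9 tested genes in each heart, as CPM scaled by TMM, 1 panel a gene with its own axis from 0. Points are hearts with their replicate number, horizontal lines group means and vertical lines 1 SD (n = 3). Atf4 rises above the controls in both transgenic groups, while Gdf15 in Myh6-ctl replicate 2, at 47.6 CPM, is as high as in the Myh6-tg hearts.

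Atf4 (ENSMUSG00000042406, chr15:80255184-80257541, plus strand) encodes the transcription factor at the centre of the response. It was at 76.4, 80.4 and 88.0 CPM in EIIa-ctl and at 148, 104 and 162 CPM in EIIa-tg hearts, so that every EIIa-tg heart lay above every control, replicate 2 the least. In Myh6-ctl hearts it was at 94.4, 119 and 90.8 CPM, and in Myh6-tg hearts at 170, 271 and 235 CPM. These groups did not overlap either. Atf4 rose by 0.75 ± 0.16 (log2 ± SE, adjusted p = 0.0227) in EIIa-tg hearts, from a mean of 81.6 ± 5.92 to 138 ± 30.3 CPM (SD, n = 3). In Myh6-tg hearts it rose by 1.15 ± 0.23 (adjusted p = 0.0161), from 101 ± 15.2 to 225 ± 51.6 CPM. ATF4 is controlled mainly at translation, which these data do not measure.

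Trib3 (ENSMUSG00000032715, chr2:152337422-152344032, minus strand) encodes a pseudokinase that restrains ATF4 and CHOP. Its levels were 3.89, 3.52 and 3.94 CPM in EIIa-ctl hearts and 5.11, 5.20 and 4.48 CPM in EIIa-tg hearts. The EIIa groups did not overlap, but the log2 fold change of 0.38 ± 0.18 did not pass the test (adjusted p = 0.172). Myh6-ctl hearts had 3.39, 2.87 and 4.38 CPM and Myh6-tg hearts 7.90, 10.0 and 8.52 CPM. Here the lowest transgenic heart was far above the highest control, and Trib3 rose by 1.31 ± 0.26 (adjusted p = 0.0148). The core in its printed window lies downstream of the RefSeq start but upstream of the GENCODE gene boundary given here.

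Ddit3 (ENSMUSG00000025408, chr10:127290774-127296288, plus strand) encodes CHOP, a factor linked to cell death in prolonged stress. EIIa-ctl hearts had 11.95, 13.5 and 16.3 CPM and EIIa-tg hearts 19.3, 17.7 and 20.7 CPM, without overlap. The log2 fold change of 0.46 ± 0.14 just missed the threshold (adjusted p = 0.0547). DESeq2 called it (adjusted p = 0.0386), while in 1 edgeR fit of all 12 hearts its adjusted p was 0.355. Myh6-ctl hearts had 13.3, 26.0 and 15.5 CPM and Myh6-tg hearts 19.8, 38.03 and 37.97 CPM, so that replicate 2 of the controls lay above replicate 1 of the transgenic hearts. The log2 fold change was 0.81 ± 0.34 (adjusted p = 0.139). In a fit blocked by replicate number, although no label pairs the hearts, Ddit3 was called (0.80 ± 0.22, adjusted p = 0.0446). Without a block it was called in 1 edgeR fit of all 12 hearts (adjusted p = 0.0455). Limma on the authors' log2 FPKM, with pseudocounts of 1 and 0.1, called it too (adjusted p = 0.0381 and 0.0352), and DESeq2 did not (0.109). The second identifier, ENSMUSG00000116429, lies within the first over 2925 bases and had 0 counts in all 12 hearts. Ddit3 also overlaps Mars on the opposite strand over 68 bases.

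Atf5 (ENSMUSG00000038539, chr7:44812256-44816658, minus strand) encodes a factor of the mitochondrial unfolded protein response. It was at 21.5, 25.3 and 22.6 CPM in EIIa-ctl and 28.1, 24.0 and 24.1 CPM in EIIa-tg hearts. In Myh6-ctl hearts it was at 35.1, 26.5 and 19.8 CPM and in Myh6-tg hearts at 24.8, 41.1 and 44.2 CPM. Hearts overlapped in both models. The log2 fold change was 0.13 in EIIa-tg hearts (95% interval -0.14 to 0.39, adjusted p = 0.469) and 0.44 in Myh6-tg hearts (-0.23 to 1.10, adjusted p = 0.327). Its gene overlaps Nup62 over 571 bases and Il4i1 over 272 bases on the opposite strand, and no source used here says whether reads were counted by strand. Nup62 itself rose in EIIa-tg hearts (log2 fold change 0.49 ± 0.11, adjusted p = 0.0291).

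Of the 4 enzymes of serine, folate and asparagine synthesis, Psat1 rose in EIIa-tg and Mthfd2 in Myh6-tg hearts. Mthfd2 (ENSMUSG00000005667, chr6:83305691-83325908, minus strand), the mitochondrial folate enzyme of growing and stressed cells, was at 2.23, 2.48 and 1.77 CPM in EIIa-ctl and 2.54, 2.66 and 4.30 CPM in EIIa-tg hearts. No EIIa-tg heart was below a control, but replicates 1 and 2 lay close to them, and the log2 fold change of 0.55 ± 0.29 did not pass the test (adjusted p = 0.214). In Myh6-ctl hearts Mthfd2 was at 3.82, 3.65 and 3.36 CPM and in Myh6-tg hearts at 7.79, 12.3 and 8.14 CPM. Each Myh6-tg heart was above every control, and Mthfd2 rose by 1.38 ± 0.26 (adjusted p = 0.0136). An unclassified locus, Gm43890, overlaps it over 2799 bases on the same strand. The printed window of Mthfd2, which ends at 83317754, lies inside the GENCODE gene boundary given here and not at its upstream end, 83325908.

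Psat1 (ENSMUSG00000024640, chr19:15904678-15947337, minus strand), the transaminase of serine synthesis, was at 3.62, 4.48 and 4.35 CPM in EIIa-ctl and 12.8, 4.93 and 15.1 CPM in EIIa-tg hearts. EIIa-tg replicates 1 and 3 were high and replicate 2 lay next to the controls, and Psat1 rose by 1.39 ± 0.36 (adjusted p = 0.0374). Myh6-ctl hearts had 3.21, 9.13 and 7.46 CPM and Myh6-tg hearts 5.44, 27.8 and 26.3 CPM. Replicate 1 of Myh6-tg lay within the range of its controls while the other two were far above, and the log2 fold change of 1.59 ± 0.62 did not pass the test (adjusted p = 0.113). In the fit blocked by replicate number Psat1 was called (1.41 ± 0.26, adjusted p = 0.0149). DESeq2 without a block called it as well (1.57 ± 0.55, adjusted p = 0.0233), while limma on log2 FPKM with a pseudocount of 1 did not (0.0840). A processed pseudogene, Gm3329, overlaps it on the opposite strand over 556 bases.

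Phgdh (ENSMUSG00000053398, chr3:98313170-98339990, minus strand), which encodes the first enzyme of serine synthesis, had 31 to 316 counts a heart and the lowest mean level per length of the tested genes in every group but Myh6-tg, where Asns was lower. It was at 0.865, 2.68 and 0.843 CPM in EIIa-ctl and 0.839, 1.81 and 1.36 CPM in EIIa-tg hearts, which overlapped fully (log2 fold change -0.13, 95% interval -1.35 to 1.10, adjusted p = 0.887). It was at 1.31, 1.55 and 2.98 CPM in Myh6-ctl and 2.37, 6.85 and 5.83 CPM in Myh6-tg hearts. Replicates 2 and 3 of Myh6-tg were above all controls, and the log2 fold change was 1.36 ± 0.50 (adjusted p = 0.0968). DESeq2 called this change (1.35 ± 0.51, adjusted p = 0.0393), and no other setting with all hearts did. The direction in EIIa-tg hearts turned when EIIa-ctl replicate 2 was left out, to a log2 fold change of 0.64.

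Asns (ENSMUSG00000029752, chr6:7675169-7693254, minus strand) encodes asparagine synthetase, a textbook ATF4 target, and its promoter carries the core. Its levels were 2.62, 4.17 and 2.34 CPM in EIIa-ctl and 3.18, 3.10 and 3.61 CPM in EIIa-tg hearts. Myh6-ctl hearts had 4.02, 2.77 and 2.69 CPM and Myh6-tg hearts 3.93, 4.99 and 4.77 CPM. Groups overlapped in both models. Its log2 fold change was 0.11 (95% interval -0.50 to 0.73, adjusted p = 0.803) in EIIa-tg and 0.53 (-0.15 to 1.21, adjusted p = 0.245) in Myh6-tg hearts.

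Gdf15 (ENSMUSG00000038508, chr8:70629393-70632456, minus strand) encodes a secreted hormone that reaches the brainstem and lowers appetite. It was at 1.14, 6.41 and 1.39 CPM in EIIa-ctl and at 23.5, 13.5 and 33.3 CPM in EIIa-tg hearts. Every EIIa-tg heart was above every control, and Gdf15 rose by 2.97 ± 0.63 (95% interval 1.53 to 4.42, adjusted p = 0.0237), which is 7.85-fold. In Myh6-ctl hearts it was at 7.05, 47.6 and 14.6 CPM and in Myh6-tg hearts at 24.5, 46.5 and 45.8 CPM. Replicate 2 of Myh6-ctl was as high as any transgenic heart. The log2 fold change was 0.75 (-0.70 to 2.21, adjusted p = 0.440), and without that control it was 1.85 (adjusted p = 0.0475). With any other heart left out instead, it was 0.32 to 0.996, with adjusted p-values of 0.321 to 0.753.

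Fgf21 (ENSMUSG00000030827, chr7:45613886-45615490, minus strand), a hormone of metabolic stress made mostly by liver, had too few counts for the test. EIIa-ctl hearts had 0, 6 and 0 counts, EIIa-tg hearts 0, 0 and 12, Myh6-ctl hearts 0, 4 and 0, and Myh6-tg hearts 2, 4 and 0. A count of 0 allows up to 3 counts, or 0.0589 to 0.0782 CPM without scaling, for counting error only. At this depth no difference in Fgf21 between groups was detectable.

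**Figure D2:**
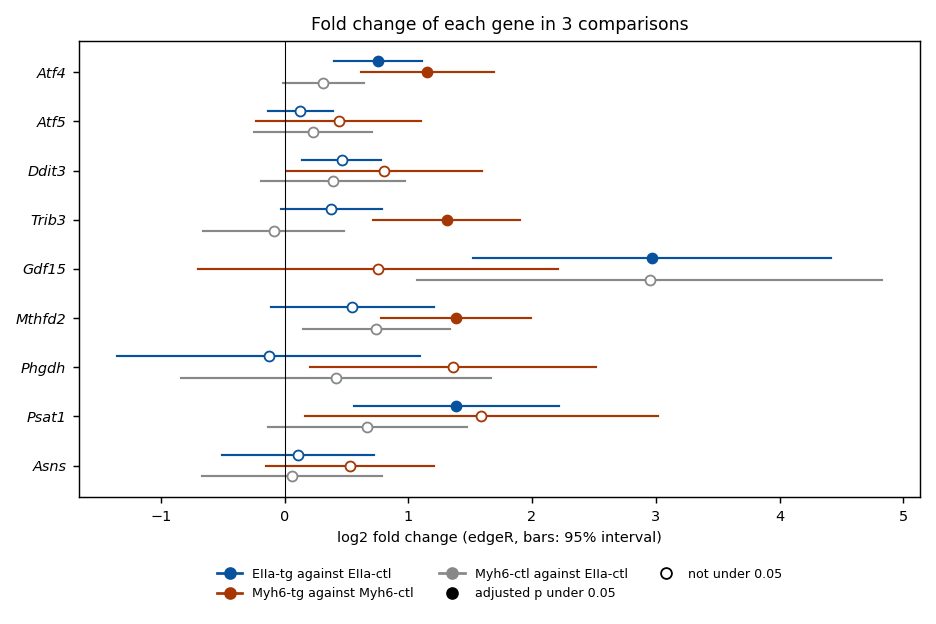
Log2 fold change of each tested gene (edgeR, scaled by TMM) for EIIa-tg against EIIa-ctl, Myh6-tg against Myh6-ctl and Myh6-ctl against EIIa-ctl hearts, with 95% intervals and filled points where the adjusted p was under 0.05. Gdf15 has its largest values in the first and the last of these comparisons, which share the EIIa-ctl hearts, and Trib3 and Mthfd2 in the Myh6-tg comparison.

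Whether the models differed was tested directly as the Myh6-tg change minus the EIIa-tg change over all 12 hearts. With edgeR 0 of the 9 genes were called, where 3.92% of 15929 genes were. An unadjusted p under 0.05 was found for 3 of them, as for 3092 of all genes, and DESeq2 called 1, where it called 8.53% of all genes. The gene DESeq2 called was Trib3, whose difference of 0.93 ± 0.28 (95% interval 0.31 to 1.55) had an adjusted p of 0.0967 with edgeR and 0.0391 with DESeq2. Gdf15 went the other way, with a difference of -2.22 (-4.43 to -0.02, adjusted p = 0.253). For Mthfd2 the difference was 0.83 (0.01 to 1.65, adjusted p = 0.253) and for Phgdh 1.49 (-0.21 to 3.18, adjusted p = 0.324). Psat1, called in EIIa-tg only, differed by 0.19 (-1.53 to 1.92, adjusted p = 0.927), and Atf4 by 0.39 (-0.23 to 1.02, adjusted p = 0.490). With edgeR, the calls in a single model were thus not shown to be particular to it.

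The controls themselves were compared to place the groups in order. Age, Cre allele, oil injection and mouse line differ together between Myh6-ctl and EIIa-ctl and cannot be told apart. With edgeR 0 of the 9 genes were called, where 0.0334% of 14990 genes were. An unadjusted p under 0.05 was found for 2 of them, as for 1700 of all genes, and DESeq2 called 0, where it called 2.63% of all genes. Atf4, Gdf15 and Mthfd2 were higher in every Myh6-ctl heart than in every EIIa-ctl heart, as were 8.69% of all genes. The log2 fold change was 2.95 for Gdf15 (1.07 to 4.83, adjusted p = 0.225), 0.74 for Mthfd2 (0.15 to 1.34, adjusted p = 0.337) and 0.31 for Atf4 (-0.02 to 0.64, adjusted p = 0.462). In the order of group means the hearts of neighbouring groups overlapped in 1 of 3 pairs for Atf4, Trib3 and Mthfd2, in 2 pairs for Gdf15 and Asns, and in all 3 pairs for Atf5, Ddit3, Phgdh and Psat1.

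Levels between genes were compared per length, as the authors' FPKM. Atf4 was the most abundant in every group, at 41.8 ± 3.62 and 81.3 ± 21.3 FPKM in EIIa-ctl and EIIa-tg hearts and 52.0 ± 4.67 and 155 ± 43.6 FPKM in Myh6-ctl and Myh6-tg hearts (SD, n = 3). Ddit3 came next in every group, from a mean of 14.1 FPKM in EIIa-ctl to 43.6 FPKM in Myh6-tg hearts, where single hearts ranged from 24.1 to 55.5 FPKM. Gdf15 was at 1.73 ± 1.80 FPKM in EIIa-ctl and 15.5 ± 7.35 FPKM in EIIa-tg hearts, and at 12.8 ± 10.9 FPKM in Myh6-ctl and 30.1 ± 11.5 FPKM in Myh6-tg hearts. Mthfd2, Phgdh and Asns remained at 0.689 to 5.42 FPKM as group means, and Fgf21 was last in every group. Of the 9 neighbouring pairs in this order, between 4 and 6 overlapped in each group.

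The hearts of a group differed in a shared way. Against the mean of its 3 controls, the median log2 ratio of the 9 genes was 0.43, 0.30 and 0.57 in EIIa-tg replicates 1 to 3 and 0.28, 1.42 and 1.17 in Myh6-tg replicates 1 to 3. Myh6-tg replicate 1 was the lowest of its group for all 9 genes, while it was the lowest for 42.6% of all genes. EIIa-tg replicate 2 was the lowest of its group for 6 genes, while it was for 38.8% of all genes. The summed cardiomyocyte markers were highest in these same hearts, at 20912 CPM in Myh6-tg replicate 1 against 8837 and 7012 CPM in the other two, and at 28626 CPM in EIIa-tg replicate 2 against 18541 and 17058 CPM. Myh6-tg replicate 1 also stood apart in the summed macrophage markers, at 1174 against 622 and 605 CPM, in skeletal muscle markers, at 50.4 against 8.46 and 6.36 CPM, and in fibroblast markers, at 2851 against 6165 and 6602 CPM. Myh6-tg replicate 1 is also the heart of its group with Y-linked counts, while EIIa-tg replicate 2 had 0. What these facts contribute was not tested.

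**Figure D3:**
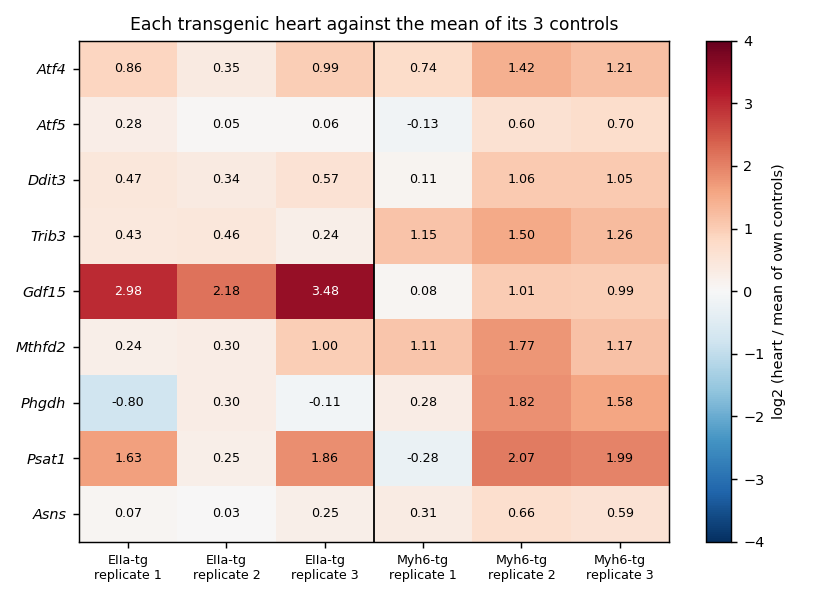
Log2 ratio of each transgenic heart to the mean of its 3 control hearts (TMM-scaled CPM), with genes in rows and hearts in columns. Red is higher and blue lower than the controls. Myh6-tg replicate 1 is lower than replicates 2 and 3 for every gene, and Gdf15 is deepest in the EIIa-tg hearts.

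The calls rested on few hearts. In EIIa-tg the count of called genes was 0 without EIIa-ctl replicate 1 or 3 or EIIa-tg replicate 1 or 3, where at most 0.877% of all genes were called, 2 without EIIa-ctl replicate 2, where 11.7% were, and 4 without EIIa-tg replicate 2, where 26.6% were. In Myh6-tg it was 0 without Myh6-ctl replicate 1 (5.01% of all genes called) or Myh6-tg replicate 2 (6.23%), and 1 without Myh6-tg replicate 3 (6.17%). It was 2 and 4 without Myh6-ctl replicate 3 (10.3%) and 2 (11.02%), and 6 without Myh6-tg replicate 1, where 26.7% of all genes were called. The sign of Atf4, Trib3, Mthfd2, Psat1 and Gdf15 stayed positive in both models in each of these fits. Mitochondrially encoded genes had a lower share in every transgenic heart than in every control of its model, for both models. With these genes left out before scaling, 3 genes were called in each model. In that setting 16.9% of all genes were called in EIIa-tg and 17.9% in Myh6-tg hearts.

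Other genes of the pathway were counted in lists. Over all genes tested, 8.65% were called higher and 8.3% lower in EIIa-tg, and 8.96% higher and 9.38% lower in Myh6-tg hearts. For the difference between the models 3.92% were called. In lists this short, a count of 0 or 1 is not set apart from those shares. Among 15 stress sensors and regulators of eIF2, 1 rose and 1 fell in EIIa-tg and 4 rose and 2 fell in Myh6-tg hearts, with median log2 fold changes of 0.02 and 0.31. Ppp1r15a (GADD34), which brings a phosphatase to eIF2 and so ends the response, rose by 1.62 ± 0.25 (adjusted p = 0.0164) in EIIa-tg and by 2.49 ± 0.37 (adjusted p = 0.00682) in Myh6-tg hearts. Dele1 and Oma1 relay mitochondrial stress to the kinase HRI. Dele1 fell, from 137 to 75.7 CPM in EIIa-tg (log2 fold change -0.86, adjusted p = 0.0326) and from 93.8 to 22.6 CPM in Myh6-tg hearts (-2.05, adjusted p = 0.00437). Oma1 fell in Myh6-tg hearts (-1.15, adjusted p = 0.0202), while Eif2b2, a subunit of the eIF2 exchange factor, rose there (2.11, adjusted p = 0.0139).

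Among 14 stress factors and negative regulators, 4 rose and 3 fell in EIIa-tg hearts (median 0.32), and 6 rose and 1 fell in Myh6-tg hearts (median 0.79). In EIIa-tg hearts Atf3, an early stress factor, rose by 1.80 ± 0.37 (adjusted p = 0.0229), while the growth arrest gene Gadd45a (-1.30), Trib2 (-0.56) and Stc2 (-0.76) fell. In Myh6-tg hearts Nupr1 (2.42), Chac1 (2.09), a glutathione-degrading enzyme, and Gadd45b (1.502) rose, and Vldlr, a lipoprotein receptor, fell (-1.01). The difference between the models was itself called for 3 of these genes, each higher in Myh6-tg: Stc2 (1.99, adjusted p = 0.0175), Gadd45a (1.75, adjusted p = 0.0242) and Chac1 (2.21, adjusted p = 0.0320).

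Amino acid transporters had the largest share of higher genes among these lists in both models. Of 9 tested, 3 rose and 1 fell in EIIa-tg hearts (median 0.67), and 7 rose and 0 fell in Myh6-tg hearts (median 1.19). Slc3a2, the shared heavy chain of several transporters, rose by 0.86 ± 0.14 (adjusted p = 0.0166) and by 1.15 ± 0.20 (adjusted p = 0.01002). In EIIa-tg hearts the glutamine transporters Slc1a5 (0.67) and Slc38a2 (0.41) rose and the arginine transporter Slc7a1 fell (-0.59). In Myh6-tg hearts the light chain Slc7a5 (1.90), Slc43a1 (1.59) and Slc38a2 (1.11) rose.

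For 12 cytosolic aminoacyl-tRNA synthetases, which charge tRNAs, the models gave different counts. In EIIa-tg hearts 0 rose and 2 fell, Eprs (-0.39, adjusted p = 0.0310) and Iars (-0.52, adjusted p = 0.0426). In Myh6-tg hearts 5 rose and 0 fell, led by Gars (1.10, adjusted p = 0.00795), Cars (0.96), Nars (0.93) and Aars (1.047). The difference between the models was called for Gars, Aars and Nars, at 0.91, 1.07 and 0.71, with adjusted p-values of 0.0142, 0.0192 and 0.0448.

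The other enzymes of serine, glycine, proline and folate metabolism were called about as rarely as all genes. In EIIa-tg hearts 1 of 19 tested rose, the glycine decarboxylase Gldc (1.96, adjusted p = 0.0313), and 1 fell, Mthfd1 (-0.48, adjusted p = 0.0441). In Myh6-tg hearts 2 of 20 rose, Pck2 (0.90, adjusted p = 0.0148) and Cbs (3.77, adjusted p = 0.0111), the latter from a mean of only 0.0715 CPM, and Mat2a fell (-0.78, adjusted p = 0.0471). The medians were -0.12 and 0.00, near those of all genes. Of 10 mitochondrial chaperones and proteases, 0 rose in either model. The protease gene Yme1l1 fell in EIIa-tg hearts (-0.39, adjusted p = 0.0311), and in Myh6-tg hearts the chaperonin genes Hspd1 (-1.61, adjusted p = 0.00320) and Hspe1 (-1.20, adjusted p = 0.0177) fell.

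Receptors for the mitokines were low in part. Gfral, the GDF15 receptor, which is known to be confined to the hindbrain, had 0 counts in every heart, and its co-receptor Ret fell in EIIa-tg (-1.11, adjusted p = 0.0322) and Myh6-tg hearts (-2.39, adjusted p = 0.0142). Klb, the co-receptor for FGF21, was too low to be tested. Fgfr1 rose in Myh6-tg hearts (1.18, adjusted p = 0.0107). Fgfr4 had 0 counts in EIIa-ctl hearts and a mean of 0.843 ± 0.514 CPM (SD, n = 3) in EIIa-tg hearts (adjusted p = 0.0190). It had enough counts for the test only in the EIIa-tg hearts, so this p is no support for a rise, and no fold is given.

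**Figure D4:**
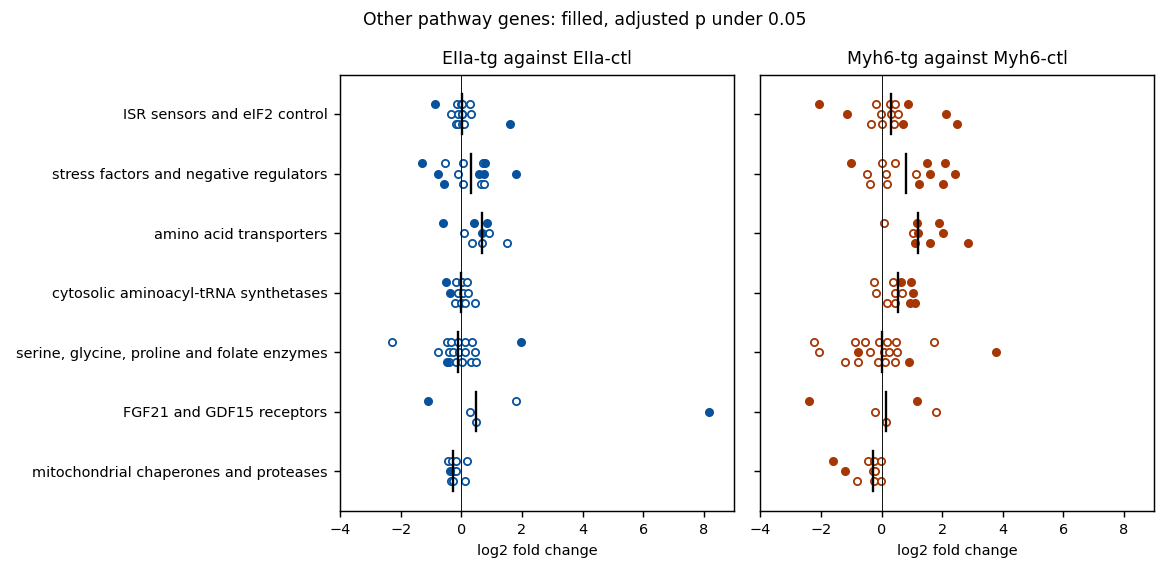
Log2 fold change (edgeR) of the genes of 7 pathway lists in EIIa-tg against EIIa-ctl hearts (left) and Myh6-tg against Myh6-ctl hearts (right), 1 point a gene, filled where the adjusted p was under 0.05, with a vertical bar at the median of each list. Transporters lie mostly to the right of 0 in both models, and synthetases do so in Myh6-tg hearts. The point farthest to the right is the fitted value of Fgfr4, whose controls had 0 counts.

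The genes with the most similar pattern over the 12 hearts were named by Pearson correlation of log2 CPM, among 10378 or 10379 genes with a mean of at least 5 CPM. All points share libraries and groups, so that the values are a description. For Atf4 they were Ppp1r15a (r = 0.990), the unannotated locus NewGene_3862 (0.986) and Cltb (0.982). For Mthfd2 they were Capn2 (0.965), Pafah1b2 (0.963) and Etf1 (0.961), and for Gdf15 Hectd2 (0.986), Lgals3 (0.945) and Myl1 (0.942).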

How the data were processed

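RNA-seq was done on whole hearts, 12 in 4 groups of 3. The authors' deposited table of gene counts held whole-number read counts per gene, not normalized, and a second deposited table held the FPKM values the authors made. Their processing notes name HISAT2 2.0.4 and StringTie 2.2.1 and the builds mm10 and GRCm39, and their methods GRCm38. The counting annotation and strand setting are not given in the sources used here. Groups came from sample titles: the genotype labels of EIIa-tg replicates 2 and 3 differ in name from that of replicate 1, and the protocol text mentions brain. The genes and gene lists were chosen with earlier results of these data known.

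Counts were filtered (filterByExpr), scaled by TMM and tested with edgeR 4.0.16 (quasi-likelihood, Benjamini-Hochberg over all genes tested), each model in its own fit of 6 hearts and the difference over 12, in R 4.3.3. CPM values are TMM-scaled. Intervals are 95% intervals of the fitted change. Labels call the hearts biological replicates. The main edgeR test, DESeq2 and limma on log2(CPM + 1) were run on simulated data. The limma fits on FPKM and the other alternative settings were not. DESeq2 1.42.0 and limma 3.58.1 on log2(FPKM + 1) and log2(FPKM + 0.1), other scaling, no filter, no mitochondrial genes, a replicate block, 1 fit of 12 hearts and leaving out each heart were alternatives. Deviations of same-numbered hearts correlated at 0.27, 0.21 and 0.23 between the Myh6 groups and at 0.12, -0.12 and -0.10 between the EIIa groups. Between the controls they correlated at 0.14, 0.064 and -0.081. The differently numbered EIIa-ctl replicate 2 and EIIa-tg replicate 3 correlated at 0.23. No label pairs the hearts, so the replicate block rests on their numbers. Replicate 1 was the heart with Y-linked counts in every group, so the block also follows sex as these counts give it. Every gene asked for was named. Of each pathway list at most 4 called genes a comparison with the lowest adjusted p were named, and for Atf4, Mthfd2 and Gdf15 the 3 most correlated genes. Gene positions are from GENCODE M21 (GRCm38) by identifier, and Gcn1 and Mars1 were matched under older symbols. Depth was 38343106 to 50969834 counts a heart, and 3 counts were the floor.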

Additional observations from a re-analysis of the deposited data

How the results depend on the processing

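Directions held in nearly all settings. The 3 calls in Myh6-tg hearts, of Atf4, Trib3 and Mthfd2, held in every alternative that kept all hearts and the limit of 0.05. Their highest adjusted p-values with edgeR there were 0.0179 (RLE scaling), 0.0194 (replicate block) and 0.0155 (replicate block). Each was lost in some of the fits that left 1 heart out. The calls in EIIa-tg hearts changed between settings. In EIIa-tg hearts the number of the 9 genes called (3) was 0 with edgeR at the stricter limits. These were an adjusted p under 0.01 with a log2 fold change of at least 1, which 0% of all genes passed there. It was 0 with the replicate block, where 0.00671% of all genes were called, and 0 in 1 fit of all 12 hearts (1.43%). It was 5 with limma on log2 FPKM and a pseudocount of 0.1 (20.1%), and ranged from 0 to 4 when 1 heart was left out. In Myh6-tg hearts (3) it was 0 at the stricter limits with edgeR. It was 5 with DESeq2 at an adjusted p under 0.05 (21.8% of all genes called) and 5 with the replicate block (20.9%). It was 0 to 6 when 1 heart was left out. For the difference between models DESeq2 called 1, Trib3 (8.53% of all genes), and for the controls the replicate block called 1, Gdf15 (adjusted p = 0.00678, 0.180% of all genes). The cause was not tested. The block changed the calls of Ddit3 and Psat1 in Myh6-tg hearts, of Gdf15 between controls and of the 3 genes lost in EIIa-tg. It changed no other call. By the labels, the hearts of a block share only a number, but those of replicate 1 also share Y-linked counts. What these counts contribute to the changed calls was not tested.

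Values near 0 changed sign. Phgdh in EIIa-tg hearts (-0.13) was 0.0037 with the block, 0.044 and 0.17 with limma on FPKM and -0.42 to 0.64 when 1 heart was left out. When 1 heart was left out, Asns in EIIa-tg ranged from -0.048 to 0.40 and the difference for Psat1 from -0.16 to 0.64. Between the controls the ranges were -0.0023 to 0.41 for Atf5, -0.27 to 0.047 for Trib3, -0.033 to 1.19 for Phgdh and -0.16 to 0.36 for Asns. On the FPKM scale the median of all genes moved to 0.13 and 0.20 in EIIa-tg, 0.27 and 0.40 in Myh6-tg and 0.12 and 0.17 for the difference (pseudocounts of 1 and 0.1), and 77.9% and 77.3% of called genes were higher in EIIa-tg and Myh6-tg. Relative to that shift the rises of Atf4, of 0.91 and 1.52, remained positive. With 3 hearts a group, the wide intervals of Gdf15, Phgdh and Psat1 limit what could be seen.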
